A study of Mus musculus with 8 samples.

Results

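The genes described here encode integrin chains of leukocytes, selectin ligands and an integrin ligand. They are Itgam, Itgal, Itgax, Itga4, Itgb1, Itgb2, Selplg, Cd44 and Icam1, 9 genes of the 54188 in the count table. They were found by name, as the rows whose symbol equals 1 of these 9. Of the 9, 6 are integrin chains, Selplg and Cd44 are selectin ligands, and Icam1 is a ligand of integrins. No selectin is among them, so selectins are given with the wider adhesion genes. All 9 passed the filter on low counts, which left 17650 genes to be tested.

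RNA was sequenced from CD11b+Gr-1hi and CD11b+Gr-1lo cells sorted by FACS from spleen (SP) and bone marrow (BM) in sanroque mice. These mice are homozygous for the san allele of Roquin (Roquin san/san) on C57BL/6, were labelled female and were about 20 weeks old. The labels call the Gr-1hi cells G-MDSC and the Gr-1lo cells M-MDSC (granulocytic and monocytic myeloid-derived suppressor cells), and write the first marker as CD11. Each of the 4 groups had 2 libraries, named by the numbers in their labels: 5 and 6 for SP Gr-1hi, 7 and 8 for SP Gr-1lo, 9 and 10 for BM Gr-1hi, and 11 and 12 for BM Gr-1lo. All groups carried san/san, and no wild-type library was analysed here. CD11b is the product of Itgam, so all 4 groups were selected for that protein. The sources used here do not give which libraries came from the same mouse.

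Integrins are cell surface receptors made of an alpha and a beta chain. The Itgb2 chain (CD18) pairs with Itgal to form LFA-1, with Itgam to form Mac-1 and with Itgax to form CD11c/CD18, which bind ICAM-1 or complement fragments and hold leukocytes on endothelium. Itga4 and Itgb1 form VLA-4, which binds VCAM-1 and fibronectin and is known for keeping myeloid cells in the marrow. Selectins capture leukocytes from flowing blood onto the vessel wall, where the cells roll. Their ligands include PSGL-1, the product of Selplg, and CD44, which also binds hyaluronan.

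The libraries held 33453580 to 68316154 counts. Where a library had no count of a gene, the limit at this depth is 3 counts (0.0348 to 0.124 CPM), for counting error only. Ly6g, a granulocyte marker, lay at 685 and 801 CPM in BM Gr-1hi and at 330 and 495 CPM in SP Gr-1hi, against 3.07 to 8.23 CPM in the Gr-1lo libraries. Csf1r, a monocyte marker, lay at 436 to 754 CPM in the Gr-1lo libraries and at 133 to 375 CPM in the Gr-1hi libraries. All mice were labelled female, but Ddx3y, a Y-linked gene, had 0 counts in library 5 and 33.7 to 82.7 CPM in the other 7 libraries. Xist, expressed from the inactive X chromosome, reached 12032 counts in library 5 and 9898 in library 7, and did not exceed 5 counts elsewhere. Only library 5, with Xist and without Ddx3y, had the pattern of the female label. By Xist, libraries 5 and 7 stand apart from the others, and results that change without them are given below with and without them. Both are SP libraries, and library 7 had Ddx3y as well as Xist. Every BM library had Ddx3y and at most 5 Xist counts, so these sex-linked genes were not balanced between SP and BM. The pair of SP Gr-1hi libraries also differed more than the other pairs, with chi-square values over genes of 68.2 per degree of freedom against 19.1 to 22.9. No pair agreed within sampling noise.

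Itgam, Itgal, Itgax and the neighbouring alpha chain Itgad lie in 1 orientation on mouse chromosome 7 (GRCm38). Itgal lies at chr7:127296260-127335138, Itgam at chr7:128062640-128118491 and Itgax at chr7:128129547-128150657. Itgal ends 727.5 kb before Itgam, 11.1 kb separate Itgam from Itgax, and 3.7 kb separate Itgax from Itgad. The other members lie apart, Itga4 at chr2:79255426-79333123, Itgb1 at chr8:128685654-128733200, Itgb2 at chr10:77530252-77565708, Selplg at chr5:113818536-113832644, Cd44 at chr2:102811141-102901665 and Icam1 at chr9:21015985-21028817. Selplg and Cd44 are on the minus strand and the others on the plus strand.

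RefSeq (GRCm38.p6) held a promoter for 6 of the 9 members. The 250 bases before the start are printed for Itgam, Itga4 and Icam1, since the results below turn on these members, of which Itgam was higher in Gr-1hi cells and Itga4 and Icam1 were lowest in BM Gr-1hi cells. All 3 are on the plus strand. Capitals mark a match on either strand to GAGGAA (the letters of an ETS factor motif), TGTGGT (RUNX) or GGAAATTCC (NF-kB), and a match on the minus strand reads as the reverse complement. The motifs overlap no other motif searched. The lines give Itgam at chr7:128062390-128062639, Itga4 at chr2:79255176-79255425 and Icam1 at chr9:21015690-21015939.
Itgam: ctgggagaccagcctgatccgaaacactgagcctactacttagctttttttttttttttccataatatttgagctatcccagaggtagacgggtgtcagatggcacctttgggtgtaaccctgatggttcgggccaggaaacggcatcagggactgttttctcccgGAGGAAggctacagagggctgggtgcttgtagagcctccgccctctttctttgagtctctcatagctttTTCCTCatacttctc
Itga4: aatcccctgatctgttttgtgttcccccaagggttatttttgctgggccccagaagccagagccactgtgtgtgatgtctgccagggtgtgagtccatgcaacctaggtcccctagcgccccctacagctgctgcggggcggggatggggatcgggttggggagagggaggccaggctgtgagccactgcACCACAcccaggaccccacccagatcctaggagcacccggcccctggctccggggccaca
Icam1: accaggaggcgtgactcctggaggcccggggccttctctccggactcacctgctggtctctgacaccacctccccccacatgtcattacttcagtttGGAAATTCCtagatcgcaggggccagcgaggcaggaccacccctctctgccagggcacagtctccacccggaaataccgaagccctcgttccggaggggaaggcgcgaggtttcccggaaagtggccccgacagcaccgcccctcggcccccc

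GAGGAA lay 84 to 79 and 15 to 10 bases before the Itgam start, and was also found before Itgb1 and Cd44. Of 32851 RefSeq promoters of this length, 23.3% hold it. TGTGGT lay 60 to 55 bases before the Itga4 start, and 14.0% of promoters hold it. GGAAATTCC lay 153 to 145 bases before the Icam1 start and before no other member with a promoter, and 0.286% of promoters hold it. The Itgax window held no match to the 3 motifs. A match describes the letters of these windows and not a bound site.

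The members fell into groups by their levels in the 4 cell populations, as the plot of levels by library shows. Itgam, Itgb2, Itgal, Selplg, Cd44 and Itgax were higher in Gr-1hi than in Gr-1lo cells in both tissues. Itgb1 and Icam1 were higher in Gr-1lo cells in both tissues, and Itga4 in BM. Values below are CPM after TMM scaling, and the adjusted p values come from the quasi-likelihood test of edgeR and were adjusted by Benjamini-Hochberg over all 17650 genes. A gene is said to have passed, or to have risen or fallen, at an adjusted p of at most 0.05. In bulk RNA, fewer cells of a type and less RNA per cell cannot be told apart.

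**Figure D1:**
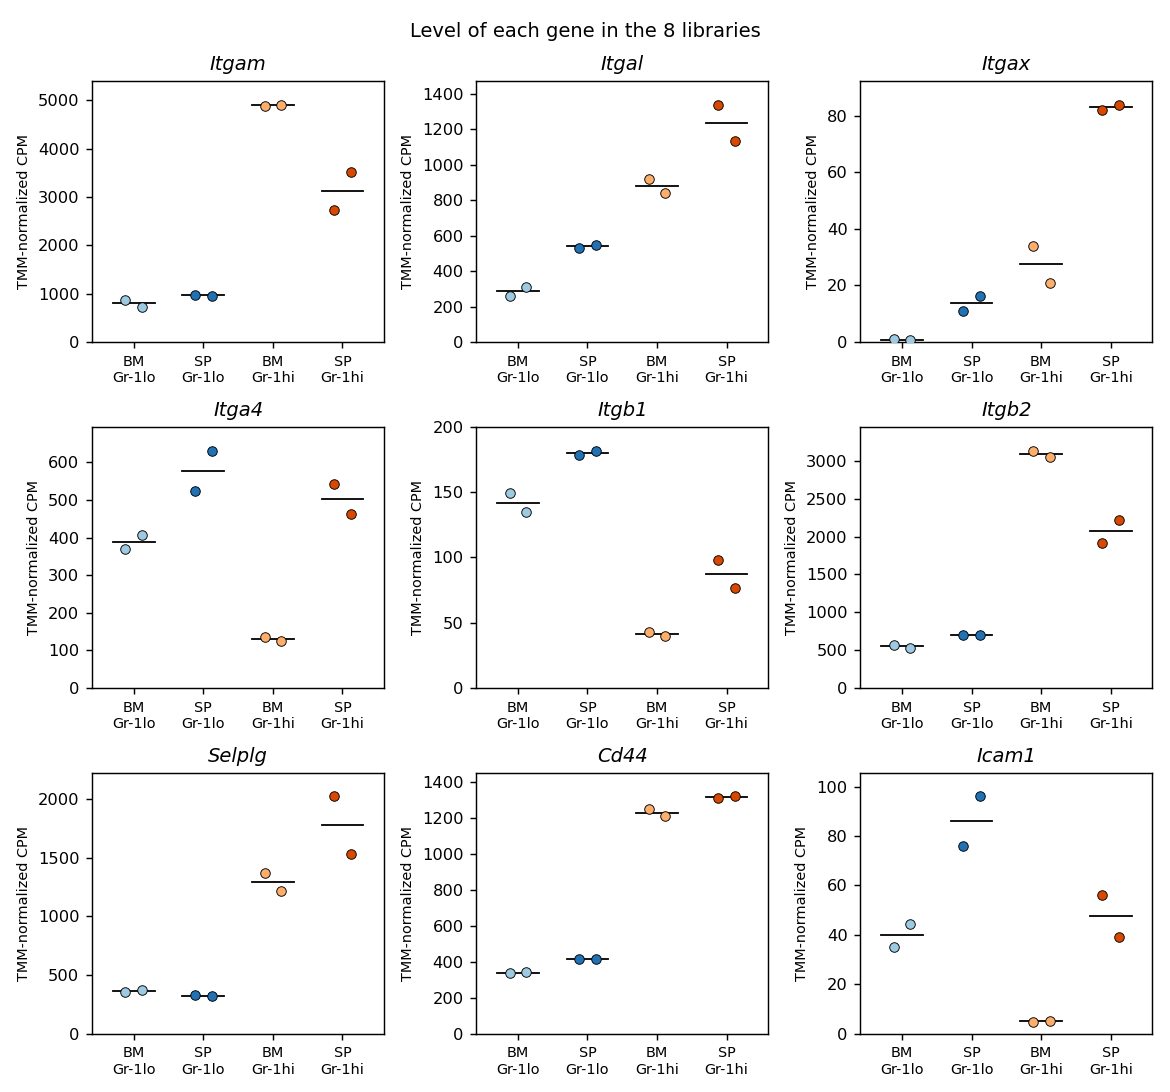
TMM-normalized CPM of each gene (y axis, linear, from 0) in the 2 libraries of each of the 4 groups (points), with the group mean (bar). Itgam ranged from 734 CPM in a BM Gr-1lo library to 4904 CPM in a BM Gr-1hi library, and Icam1 was near 5 CPM in both BM Gr-1hi libraries.

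Itgam, the alpha chain of Mac-1, was the most abundant alpha chain among the members in all 4 groups when levels were taken per length. It had 877 and 734 CPM in BM Gr-1lo, 983 and 952 CPM in SP Gr-1lo, 4885 and 4904 CPM in BM Gr-1hi, and 2739 and 3511 CPM in SP Gr-1hi. Both BM Gr-1hi libraries lay above both SP Gr-1hi libraries, and all Gr-1lo libraries lay below these. Itgb2, the shared beta chain, had 563 and 534 CPM in BM Gr-1lo, 705 and 695 CPM in SP Gr-1lo, 3138 and 3054 CPM in BM Gr-1hi, and 1921 and 2217 CPM in SP Gr-1hi. The order of the groups was that of Itgam. Neither gene differed past the threshold between the Gr-1lo groups (adjusted p = 0.325 for Itgam and 0.0869 for Itgb2).

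Itgal, the alpha chain of LFA-1, had 259 and 312 CPM in BM Gr-1lo, 530 and 550 CPM in SP Gr-1lo, 921 and 841 CPM in BM Gr-1hi, and 1338 and 1132 CPM in SP Gr-1hi. The libraries of no 2 groups overlapped, and each step of this order passed. Itgax, the alpha chain known as CD11c, kept the same order over a wider range, with 1.13 and 0.605 CPM in BM Gr-1lo (55 and 32 counts), 11.1 and 16.4 CPM in SP Gr-1lo, 34.1 and 20.9 CPM in BM Gr-1hi, and 81.9 and 83.8 CPM in SP Gr-1hi. Each step of the Itgax order passed too. The smallest was the step from SP Gr-1lo to BM Gr-1hi, at 0.99 on the log2 scale (SE 0.28, adjusted p = 0.0133).

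Itga4, the alpha chain of VLA-4, had 371 and 406 CPM in BM Gr-1lo, 523 and 632 CPM in SP Gr-1lo, 541 and 463 CPM in SP Gr-1hi, and 135 and 125 CPM in BM Gr-1hi. The BM Gr-1hi libraries lay far below the rest, and the SP groups overlapped. Itgb1, the beta chain of VLA-4 and of other integrins, had 149 and 135 CPM in BM Gr-1lo, 179 and 182 CPM in SP Gr-1lo, 42.8 and 39.5 CPM in BM Gr-1hi, and 98.3 and 76.3 CPM in SP Gr-1hi. No groups overlapped for Itgb1, with BM Gr-1hi lowest and SP Gr-1lo highest.

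Selplg, which encodes PSGL-1, had 354 and 375 CPM in BM Gr-1lo, 327 and 322 CPM in SP Gr-1lo, 1374 and 1213 CPM in BM Gr-1hi, and 2024 and 1534 CPM in SP Gr-1hi. Cd44 had 337 and 344 CPM in BM Gr-1lo, 414 and 417 CPM in SP Gr-1lo, 1250 and 1209 CPM in BM Gr-1hi, and 1310 and 1321 CPM in SP Gr-1hi. For both genes all Gr-1hi libraries lay above all Gr-1lo libraries. The Gr-1lo groups of SP and BM did not differ past the threshold for Selplg (adjusted p = 0.532) or Cd44 (0.0803), nor did the Gr-1hi groups for Cd44 (0.368).

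Icam1, whose product is the ligand of LFA-1 and Mac-1, had 35.2 and 44.6 CPM in BM Gr-1lo, 76.1 and 96.0 CPM in SP Gr-1lo, 4.79 and 5.33 CPM in BM Gr-1hi (128 and 129 counts), and 56.0 and 39.2 CPM in SP Gr-1hi. The BM Gr-1hi libraries were lowest, and the libraries of BM Gr-1lo and SP Gr-1hi overlapped. These groups did not differ past the threshold (log2 FC 0.25, SE 0.19, adjusted p = 0.256). The orders of levels use comparisons across both tissue and subset, in which 76.1% (SP Gr-1lo with BM Gr-1hi) and 76% (SP Gr-1hi with BM Gr-1lo) of all genes passed.

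Between the subsets of BM, all 9 members passed, 6 higher and 3 lower in Gr-1hi cells. Of all genes tested, 75.7% passed, 34.5% higher and 41.2% lower, so most genes differed here. Itgax had the largest difference among the members (log2 FC 5.00, SE 0.37, adjusted p = 6.44e-06). Itgam (2.60, SE 0.14) and Itgb2 (2.50, SE 0.10) rose by similar amounts, and Cd44 (1.85, SE 0.08), Selplg (1.83, SE 0.14) and Itgal (1.63, SE 0.12) by less. Itga4 (-1.58, SE 0.12), Itgb1 (-1.79, SE 0.13) and Icam1 (-2.98, SE 0.22) were lower in Gr-1hi cells. The median log2 FC was 1.83 over the members and -0.17 over all genes. The latter was -0.03 with RLE scaling, under which all 9 members kept their direction and passed.

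The study's threshold for a DEG between subsets, FC above 8 with adjusted p below 0.01, was met by Itgax alone among the members in BM, and by 16.7% of all genes. Icam1 had an FC of 7.90 and fell just short. The libraries of the BM subsets did not overlap for any member, as for 88.9% of all genes.

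Between the subsets of SP, 8 members passed, 6 higher and 2 lower in Gr-1hi cells, against 71.4% of all genes, 33.6% higher and 37.8% lower. Itgax (2.58, SE 0.29), Selplg (2.46, SE 0.14), Itgam (1.69, SE 0.14), Cd44 (1.66, SE 0.08), Itgb2 (1.56, SE 0.10) and Itgal (1.19, SE 0.12) rose on the log2 scale. Itgb1 (-1.05, SE 0.13, adjusted p = 8.95e-05) and Icam1 (-0.85, SE 0.19, adjusted p = 0.0039) fell. Itga4 was at -0.20 (SE 0.12, adjusted p = 0.165), and was the 1 member whose libraries overlapped. It passed in 4 alternatives: without library 5 (-0.34, adjusted p = 0.0483), without libraries 5 and 7 (-0.47, adjusted p = 0.0171), without a filter (-0.33, adjusted p = 0.00637) and in the exact test on quantile-normalized TPM (-0.52, adjusted p = 0.0224).

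The median log2 FC between the SP subsets was 1.56 over the members and -0.09 over all genes. No overlap of libraries was seen for 86.2% of all genes. By the threshold of an FC above 8, edgeR called 0 members in SP, while 7.37% of all genes were DEGs. DESeq2 and edgeR's exact test on quantile-normalized TPM also gave 0 DEGs among the members.

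**Figure D2:**
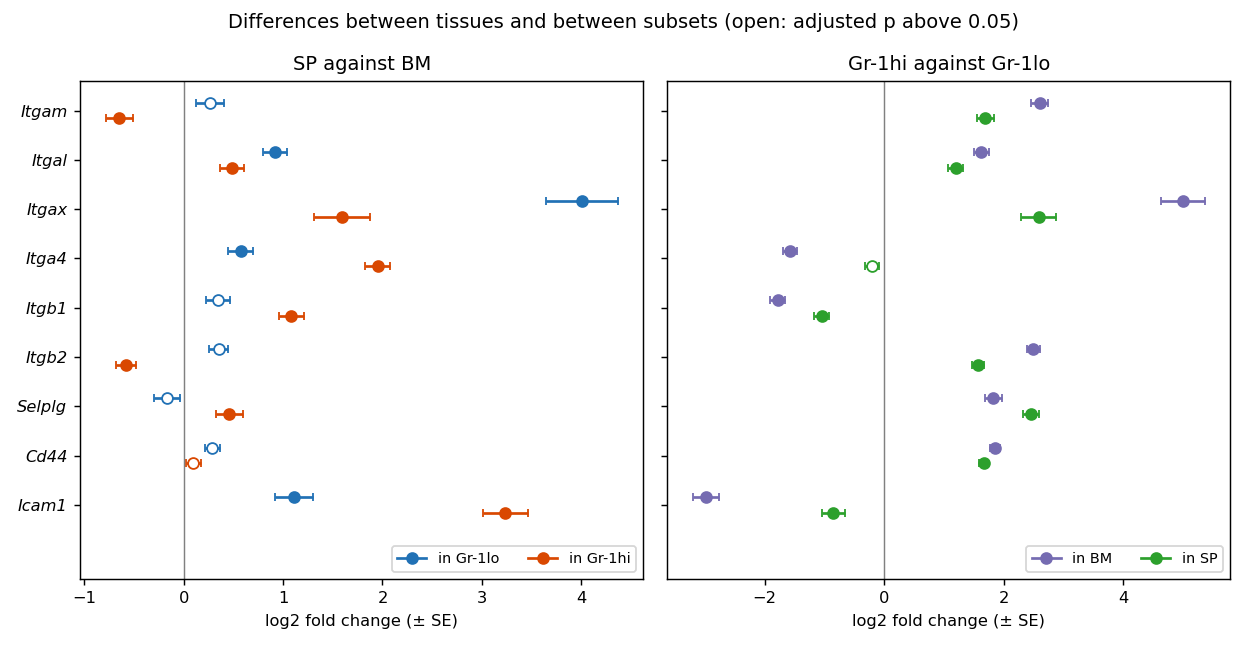
log2 FC of the 9 genes (x axis, ± SE) between SP and BM in each subset (left) and between Gr-1hi and Gr-1lo cells in each tissue (right), with open symbols for an adjusted p above 0.05. Icam1 and Itga4 rose more between BM and SP in Gr-1hi cells than in Gr-1lo cells, and 8 of the 9 values in the right panel are closer to 0 in SP than in BM.

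Between SP and BM in Gr-1lo cells, 4 members passed and all 4 were higher in SP: Itgax, Icam1, Itgal and Itga4. Of all genes, 5.58% passed, 4.88% higher and 0.697% lower in SP. Itgax rose 16.1-fold (log2 SE 0.36, adjusted p = 0.000957) and Icam1 by 1.11 on the log2 scale (SE 0.19, adjusted p = 0.0134), and both met the study's threshold for a DEG between tissues, FC of 2 or more with adjusted p up to 0.05, as did 4.06% of all genes. Itgal rose by less (0.92, SE 0.12, adjusted p = 0.00341), as did Itga4 (0.57, SE 0.12, adjusted p = 0.0299). The log2 FC of the others lay between -0.17 for Selplg and 0.35 for Itgb2. The libraries of the tissues did not overlap for any member, as for 59.7% of all genes.

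The median log2 FC in Gr-1lo cells was 0.35 over the members and -0.01 over all genes. Without library 8 or 11, neither Icam1 (adjusted p = 0.0967 and 0.0993) nor Itga4 (0.248 and 0.186) passed, and 2 members did. Itga4 also failed without library 12 (0.111) and with RLE scaling (0.0555), and Itgax failed in the exact test on quantile-normalized TPM (0.0925). Without library 5 or 6, which are not in this comparison but share the estimate of spread, 7 members passed.

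Between SP and BM in Gr-1hi cells, 8 members passed, 6 higher and 2 lower in SP, against 34% of all genes, 20.1% higher and 13.9% lower. Icam1 rose the most (log2 FC 3.24, SE 0.22, adjusted p = 0.000107), followed by Itga4 (1.95, SE 0.13, adjusted p = 9.46e-05), Itgax (1.59, SE 0.28, adjusted p = 0.00533) and Itgb1 (1.08, SE 0.13, adjusted p = 0.000698). These 4 were DEGs, as were 15.5% of all genes. Itgal (0.49, SE 0.12, adjusted p = 0.0164) and Selplg (0.46, SE 0.13, adjusted p = 0.0298) rose by less. The chains of Mac-1 went the other way, with Itgam at -0.65 (SE 0.14, adjusted p = 0.00845) and Itgb2 at -0.58 (SE 0.10, adjusted p = 0.00336). Cd44 was at 0.10 (SE 0.08, adjusted p = 0.368).

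The median log2 FC in Gr-1hi cells was 0.49 over the members and 0.03 over all genes. No overlap between the tissues was seen for any member, as for 67.8% of all genes. In the exact test on quantile-normalized TPM, Itgam (adjusted p = 0.0503), Itgal (0.0738) and Selplg (0.0904) did not pass. Selplg also failed with RLE scaling (0.0642) and in a fit of the 4 libraries compared (0.0857). Without libraries 5 and 7, 5 members passed, and Itgam (-0.46, adjusted p = 0.0559), Itgal (0.38, adjusted p = 0.11) and Selplg (0.26, adjusted p = 0.2) did not. Itgal failed without library 5, 9 or 10 (adjusted p = 0.147, 0.0632 and 0.164), and Selplg failed without each of 5, 7, 8, 9 and 10, with adjusted p from 0.0504 to 0.318.

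The tissue difference was then compared between the subsets, as the SP against BM log2 FC in Gr-1hi cells minus that in Gr-1lo cells. Of the members 6 passed, 3 above and 3 below 0, against 16.4% of all genes, 10.3% above and 6.08% below. Icam1 (2.13, SE 0.29, adjusted p = 0.0044), Itga4 (1.38, SE 0.17, adjusted p = 0.00349) and Itgb1 (0.74, SE 0.18, adjusted p = 0.027) rose more from BM to SP in Gr-1hi cells. Itgax (-2.41, SE 0.46, adjusted p = 0.0148) rose more in Gr-1lo cells, where it started from near 1 CPM in BM. Itgb2 (-0.93, SE 0.14, adjusted p = 0.00534) and Itgam (-0.91, SE 0.19, adjusted p = 0.0179) fell in Gr-1hi cells and had values of 0.35 and 0.27 in Gr-1lo cells. The median was -0.19 over the members and 0.03 over all genes.

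Itgal (-0.43, SE 0.17, adjusted p = 0.121), Selplg (0.63, SE 0.19, adjusted p = 0.0561) and Cd44 (-0.19, SE 0.11, adjusted p = 0.275) did not pass this test. Icam1, Itga4 and Itgb2 passed in all alternatives run. Without libraries 5 and 7, Itgam (adjusted p = 0.0756), Itgax (0.0859) and Itgb1 (0.0978) did not pass. Singly, Itgam failed without library 7, 8 or 12 (0.0637, 0.0593 and 0.0707), Itgax without library 5 or 12 (0.0622 and 0.0592), and Itgb1 without any library but 6 (0.0606 to 0.119).

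Levels of different chains were compared per length, as TPM. Itgam made up 78.4% ± 4.25 (SD, n = 2) of the summed TPM of the alpha chains that pair with Itgb2 in BM Gr-1lo, 69.3% ± 1.20 in SP Gr-1lo, 87.4% ± 0.863 in BM Gr-1hi and 74.7% ± 5.30 in SP Gr-1hi. Itgal took most of the rest, at 21.5% ± 4.29, 29.6% ± 0.919, 12.0% ± 0.686 and 22.9% ± 5.08 in the same order. The Itgal share was above that of BM in every SP library of the same subset, and SP Gr-1hi libraries 5 and 6 differed among themselves (26.5% and 19.4%). With 2 libraries a group, an exact permutation test of a share cannot go below p = 0.333, so these are descriptions.

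Itgax had 0.0872% of the alpha chain TPM in BM Gr-1lo, 1.03% in SP Gr-1lo, 0.513% in BM Gr-1hi and 2.09% in SP Gr-1hi. Itgad, the least abundant partner, had at most 0.248% in any library. The Itgb2 level followed the sum of its partners. Itgb2 TPM was 534 to 1765 and the alpha sum 591 to 1923 TPM, yet their ratio stayed within 0.816 to 0.918 in all 8 libraries. Within this range the SP libraries, at 0.816 to 0.827, lay below the BM libraries, at 0.8615 to 0.918. The ratio of Itga4 to Itgb1 TPM was 0.725 to 1.01 in 6 libraries and 1.61 and 1.77 in the SP Gr-1hi libraries, as the plot of subunit ratios shows. Itgb7, the other partner of Itga4, had more TPM than Itgb1 in every library (78.3 to 545 TPM against 15.8 to 132).

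**Figure D3:**
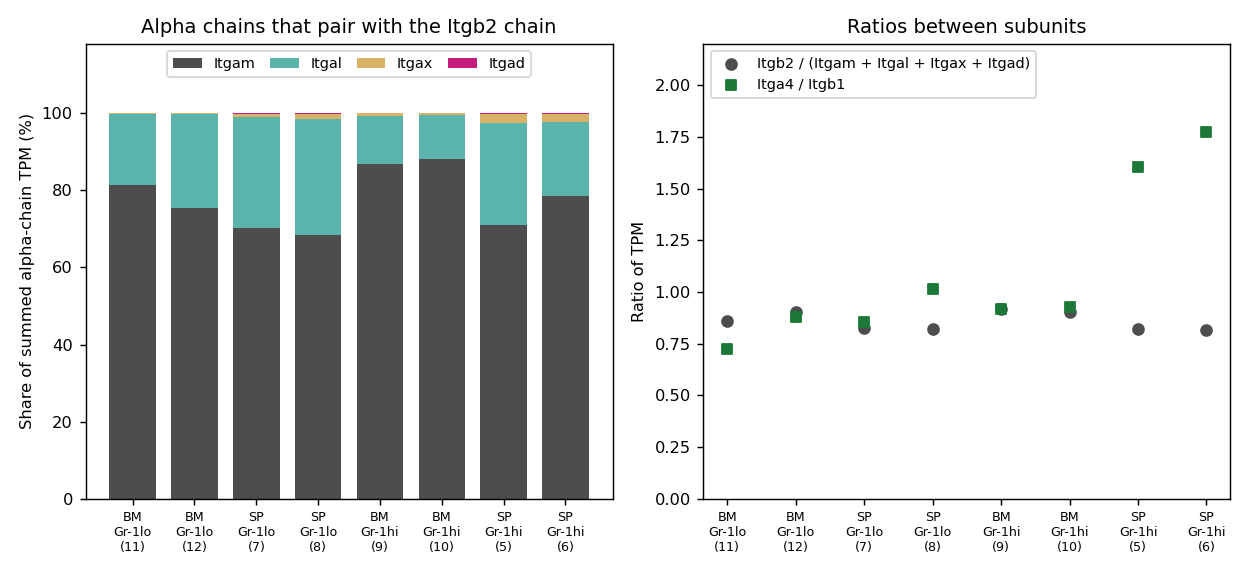
Left, share of each alpha chain in the summed TPM of the 4 alpha chains that pair with Itgb2 (y axis, %), by library (number in brackets), with Itgad too thin to see in most bars. Right, ratio of Itgb2 to the alpha sum (circles) and of Itga4 to Itgb1 (squares) in TPM, where the squares of the SP Gr-1hi libraries lie above the others.

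Among all tested genes with a length, Itgam and Itgb2 had a mean TPM percentile of 98.4 to 99.7 in the 4 groups. Itgax had a percentile of 15 in BM Gr-1lo and 82.4 in SP Gr-1hi, and Icam1 of 41.3 in BM Gr-1hi and 85.5 in SP Gr-1lo. Over the 8 libraries, centred log2 CPM of Itgam and Itgb2 had a root mean square difference of 0.0919, the smallest of any pair of members. Itgax and Icam1 were farthest apart (3.09), and Itga4 and Itgb1 differed by 0.427. These distances rest on 4 groups of 2 libraries and are descriptions.

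The gene Gm49368 shares 3450 of the 5024 exon bases of Itgam (68.7%) on the same strand, and its count was 77.3% to 81.0% of the Itgam count in each library. How reads on shared exons were assigned was not tested, so the Itgam level is uncertain, although the ratio of both counts was similar in all libraries. Antisense genes overlap Itga4 (Cerkl, 8.04% of exon bases) and Icam1 (Gm47079, 11.7%). Cerkl had at most 0.807% of the Itga4 count, and Gm47079 had at most 13 counts in any library.

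Of 85 other adhesion genes in lists of chains, selectins, ligands and regulators, 74 were tested. Between the BM subsets 59 passed, 42 higher and 17 lower in Gr-1hi cells, and between the SP subsets 57 passed, 42 higher and 15 lower, against 75.7% and 71.4% of all genes. Of all genes, 34.5% were higher and 41.2% lower in Gr-1hi cells of BM, and 33.6% and 37.8% in those of SP. Between SP and BM, 13 passed in Gr-1lo cells (11 higher, 2 lower) and 32 in Gr-1hi cells (16 higher, 16 lower), against 5.58% and 34% of all genes. In SP, 4.88% of all genes were higher and 0.697% lower in Gr-1lo cells, and 20.1% and 13.9% in Gr-1hi cells. The counts of each list below stand beside these shares. The median log2 FC over the 74 was 1 in BM and 0.76 in SP between subsets, and 0.09 and -0.02 between tissues in Gr-1lo and Gr-1hi cells. In the test of the difference between subsets 13 passed, 4 above and 9 below 0, against 16.4% of all genes, 10.3% above and 6.08% below.

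Among the selectins, Selp (P-selectin), with 3.29 to 39.7 CPM, was higher in Gr-1hi cells of BM (log2 FC 1.81, SE 0.48, adjusted p = 0.0124) and SP (1.60, SE 0.46, adjusted p = 0.0183). It did not pass between tissues in Gr-1lo (adjusted p = 0.354) or Gr-1hi cells (0.286). Sele (E-selectin), an endothelial gene, was at most 1.03 CPM and passed in none of the 4 comparisons (adjusted p = 0.0814 to 0.343).

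Among 11 other alpha chains tested, 7 were higher and 3 lower in Gr-1hi cells of BM, and 6 higher and 3 lower in SP. Itga1, a collagen receptor chain, was lower in Gr-1hi cells by the most, at -6.39 (SE 0.31) in BM and -6.16 (SE 0.31) in SP, and Itga5, the fibronectin receptor chain, was at -3.84 (SE 0.18) and -1.81 (SE 0.16). Itga5 rose from BM to SP in Gr-1hi cells (2.30, SE 0.17, adjusted p = 0.000132), where 4 of the list rose and Itga6 fell (-0.55, SE 0.17). In Gr-1lo cells 4 rose, among them Itgav (0.78, SE 0.10) and Itgad. Itgad rose by 4.24 (SE 0.46, adjusted p = 0.00129) in Gr-1lo and 2.40 (SE 0.31, adjusted p = 0.00107) in Gr-1hi cells, as did its neighbour Itgax. Itgad lay at 0.0189 to 8.59 CPM. Its BM Gr-1lo libraries, at 0.0189 and 0.123 CPM, were near the limit of 3 counts (0.0567 and 0.0615 CPM there).

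Of the 6 other beta chains tested, 2 rose and 2 fell in Gr-1hi cells of BM, and 3 rose and 1 fell in SP. Itgb2l, which resembles Itgb2, was 5.29 (SE 0.28) and 3.11 (SE 0.25) higher on the log2 scale in Gr-1hi cells of BM and SP, and Itgb3 3.57 (SE 0.25) and 2.74 (SE 0.24) higher. Itgb5 was lower in both (-3.47, SE 0.31, and -2.34, SE 0.27), and Itgb7 in BM (-1.48, SE 0.19). From BM to SP in Gr-1hi cells, 3 rose, including Itgb7 (0.77, SE 0.19), and Itgb2l (-1.13, SE 0.23) and Itgb3 (-0.99, SE 0.23) fell. In Gr-1lo cells 1 rose, Itgb2l (1.05, SE 0.23, adjusted p = 0.0404).

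Of 13 tested genes for other selectin ligands and their modifying enzymes, 5 rose and 4 fell in Gr-1hi cells of BM, and 5 rose and 2 fell in SP. St3gal6, a sialyltransferase that acts on selectin ligands, rose by 6.75 (SE 0.40) and 5.83 (SE 0.35), Cd24a, a P-selectin ligand, by 3.81 (SE 0.16) in BM, and Gcnt1, which branches O-glycans, by 3.34 (SE 0.15) in SP. Spn (CD43) fell in both (-0.84, SE 0.16, and -0.68, SE 0.16). Tpst1, a tyrosine sulfotransferase that acts on PSGL-1, fell in BM (-2.74, SE 0.61), although the BM Gr-1hi libraries held 0.785 and 4.46 CPM. Tpst2, of the same list, had means of 57.9 CPM in BM Gr-1lo and 75.8 CPM in BM Gr-1hi, the other direction. From BM to SP in Gr-1hi cells, 3 rose and 5 fell, with St3gal4 at 1.02 (SE 0.16), Tpst1 at 2.01 (SE 0.62), the fucosyltransferase Fut7 at -0.93 (SE 0.24) and Cd24a at -0.83 (SE 0.14). In Gr-1lo cells 2 fell, including Gcnt1 (-0.65, SE 0.14).

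Of 9 other integrin ligands tested, 1 rose and 5 fell in Gr-1hi cells of BM, and 2 rose and 4 fell in SP. Fn1, which encodes fibronectin, fell the most, at -7.58 (SE 1.48) in BM and -10.02 (SE 1.70) in SP, although the BM Gr-1hi libraries held 1.12 and 31.2 CPM. F11r (JAM-A) fell as well (-3.82, SE 0.60, and -2.50, SE 0.50). Vcam1, the ligand of VLA-4, was lower in Gr-1hi cells of BM (-1.49, SE 0.23) and had a value of -0.09 (adjusted p = 0.727) in SP. From BM to SP in Gr-1hi cells 3 rose, Vcam1 (0.90, SE 0.23), F11r (2.57, SE 0.60) and Thy1 (4.30, SE 0.52), which is also a T cell gene. In Gr-1lo cells 1 of the 9 rose.

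Of 18 genes of integrin activation, 17 rose in Gr-1hi cells of BM, and 16 rose and 1 fell in SP, with a median log2 FC of 1.45 and 1.11. Of all genes, 34.5% were higher in Gr-1hi cells of BM and 33.6% in those of SP. Pxn (paxillin) rose by 2.44 (SE 0.09) and 2.01 (SE 0.09), and Fgr, a Src family kinase, by 1.69 (SE 0.13) in SP. Rap1a, a small GTPase that activates integrins, fell in SP (-0.35, SE 0.08). It had a mean of 137 CPM in SP Gr-1lo and 108 CPM in SP Gr-1hi. Rap1b, of the same list, had 391 and 623 CPM in these groups, the other direction. From BM to SP, 5 rose in Gr-1lo cells, including Fgr (0.64, SE 0.13). In Gr-1hi cells 2 rose, including Ptk2b (0.37, SE 0.12), and 6 fell, including Fermt3, which encodes kindlin-3 (-0.65, SE 0.10), and Vcl, which encodes vinculin (-0.83, SE 0.21).

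Of 5 inhibitors of integrins, 3 rose and 1 fell in Gr-1hi cells of each tissue. Flna (filamin A) rose in BM (1.52, SE 0.10) and SP (0.74, SE 0.10), Itgb1bp1 rose in BM (0.86, SE 0.11), Cytip rose in SP (0.85, SE 0.09), and Dok1 fell in both (-1.08, SE 0.11, and -0.97, SE 0.11). From BM to SP in Gr-1hi cells Cytip rose (0.40, SE 0.09) and Flna fell (-0.68, SE 0.10). Of 9 tested genes for CD44 partners, hyaluronan and sheddases, 5 rose and 2 fell in Gr-1hi cells of BM, and 5 rose and 3 fell in SP. The linkers of CD44 to actin differed, with Ezr (1.85, SE 0.10, and 1.72, SE 0.10) and Msn (0.87, SE 0.10, and 0.93, SE 0.10) higher and Rdx (-0.57, SE 0.11, and -0.56, SE 0.11) lower. Hmmr, a hyaluronan receptor that also marks dividing cells, was lower in both (-1.85, SE 0.27, and -1.95, SE 0.27).

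Markers of other cell types moved with the tissue. The summed level of 17 B cell markers, of which Ighm was the highest in SP Gr-1hi (848 CPM), was 183 to 206 CPM in BM Gr-1hi and 1814 and 1131 CPM in SP Gr-1hi, and 227 to 283 CPM in BM Gr-1lo and 401 to 643 CPM in SP Gr-1lo. All 17 rose in SP Gr-1hi and 15 in SP Gr-1lo, and Cr2 was at 0 in library 11. Of all genes, 20.1% rose and 13.9% fell in SP Gr-1hi, and 4.88% rose and 0.697% fell in SP Gr-1lo. The marker counts below stand beside these shares. Plasma cell markers rose likewise (9 genes, 8 tested, 8 and 7 passed), from 65.2 to 73.0 CPM to 1368 to 1558 CPM in Gr-1hi cells. In Gr-1lo cells they went from 141 to 208 CPM to 1001 to 1502 CPM. The antibody genes Igkc (898 CPM) and Ighg2c (450 CPM) were the highest of them in SP Gr-1hi, where Sdc1 had 1.99 CPM. Tnfrsf17 was at 0 in 4 libraries. T cell markers (10 genes) went from 6.85 to 9.87 CPM to 73.6 to 116 CPM in Gr-1hi, where 9 passed, and from 1.72 to 1.95 CPM to 24.7 to 39.1 CPM in Gr-1lo cells, where 10 passed.

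Among other lists of 6 to 9 genes, dendritic cell markers, whose source can express Itgax, had 6.77 to 6.95 CPM in BM Gr-1hi, 31.7 to 37.8 CPM in SP Gr-1hi, 6.39 to 9.12 CPM in BM Gr-1lo and 19.8 to 30.9 CPM in SP Gr-1lo. Of its 9 genes, 5 rose and 1 fell in Gr-1hi and 4 rose in Gr-1lo cells, and Xcr1, Zbtb46, Cd209a and Ccr7 were each at 0 in 1 or 2 BM libraries. Splenic macrophage markers had 37.2 to 48.6, 112 to 120, 9.96 to 12.4 and 42.5 to 62.4 CPM in the same groups, with 8 and 7 of 9 risen, and Marco and Timd4 at 0 in both BM Gr-1lo libraries. Erythroid markers also moved with the tissue, with 35.9 and 44.1 CPM in BM Gr-1hi, 218 and 735 CPM in SP Gr-1hi, 7.76 and 8.35 CPM in BM Gr-1lo and 167 and 233 CPM in SP Gr-1lo, and 6 of 7 tested rose in Gr-1hi and 7 in Gr-1lo cells. Klf1 was at 0 in libraries 5, 9 and 10. NK cell markers had 1.65 to 2.17, 8.42 to 11.5, 0.369 to 0.680 and 3.99 to 4.68 CPM in the same groups, and 4 of 6 rose in Gr-1hi and 2 in Gr-1lo cells, with Ncr1 and Klra8 at 0 in library 11. Over all libraries, platelet markers had 0.397 to 1.02 CPM, eosinophil and basophil markers 11.6 to 56.9 CPM and 5 endothelial and stromal markers 0.718 to 10.0 CPM.

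The 11 neutrophil markers summed to 158600 and 172100 CPM in BM Gr-1hi, 87790 and 119000 CPM in SP Gr-1hi, 5209 and 5255 CPM in BM Gr-1lo and 12330 and 11040 CPM in SP Gr-1lo. From BM to SP, 6 fell and 1 rose in Gr-1hi cells, where Itgam and Itgb2 fell. In Gr-1lo cells 5 rose and 0 fell, and Itgam and Itgb2 did not pass there (adjusted p = 0.325 and 0.0869 in edgeR's test). The 9 monocyte markers summed to 1333 and 1740 CPM in BM Gr-1hi and 1080 and 1201 CPM in SP Gr-1hi, where 4 rose and 1 fell, and to 5555 to 7242 CPM in Gr-1lo cells. Within SP Gr-1hi, library 5 had more B cell and fewer neutrophil marker counts than library 6. It had higher Itgal, Itga4, Itgb1, Selplg and Icam1, and lower Itgam and Itgb2. Itgax (81.9 and 83.8 CPM) and Cd44 (1310 and 1321 CPM) were close in libraries 5 and 6. Erythroid markers were lower in library 5 (218.1 against 734.5 CPM). These libraries also differed in Xist (12032 and 0 counts) and Ddx3y (0 and 2591 counts). The part of other cells in the differences of the members between SP and BM was not tested.

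**Figure D4:**
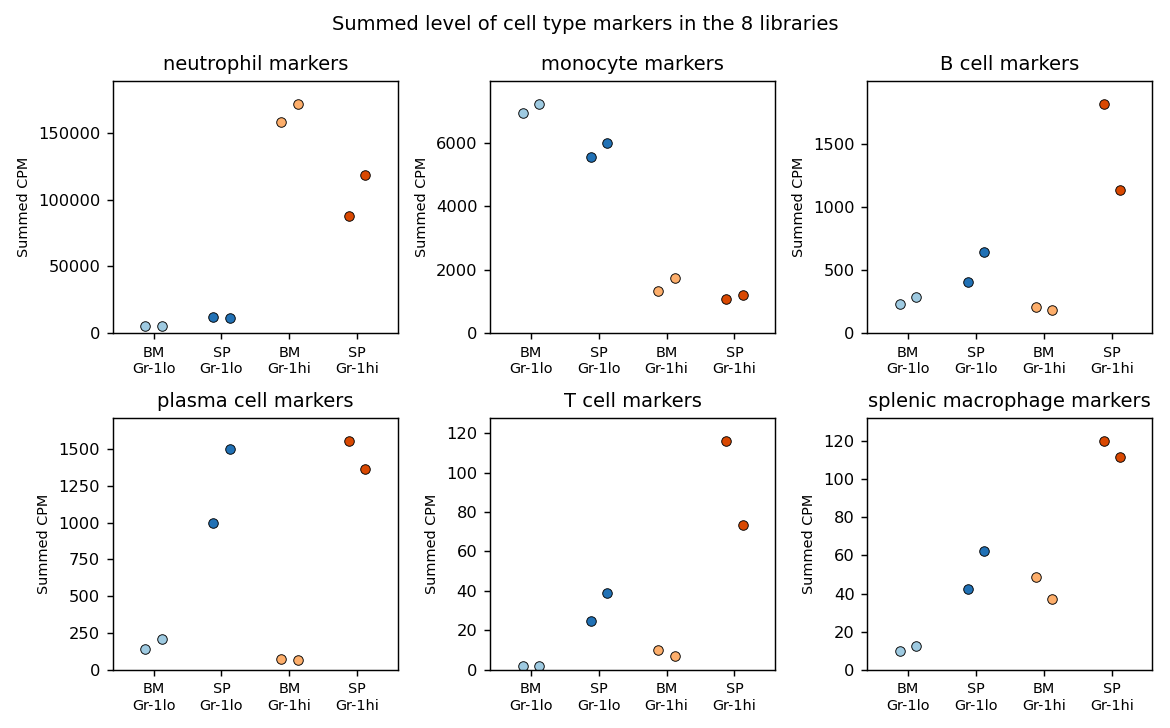
Summed TMM-normalized CPM of cell type markers (y axis, linear, from 0) in the 2 libraries of each group (points). Lymphocyte and macrophage markers were higher in both SP groups than in BM of the same subset, and neutrophil markers were lower in SP Gr-1hi than in BM Gr-1hi.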

How the data were processed

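RNA-seq of CD11b+Gr-1hi and CD11b+Gr-1lo cells from SP and BM of sanroque mice was analysed, in 8 libraries. According to the submitters' processing notes and the methods, reads were checked with FastQC, filtered with Sickle, aligned to GRCm38 with STAR and counted per gene with featureCounts, from a stranded kit. The authors deposited raw counts per gene, without normalization. Here, all 8 libraries were fitted together with edgeR 4.0.16 in R 4.3.3 (filterByExpr, TMM, robust quasi-likelihood test, 4 group means, 4 residual degrees of freedom), and p values were adjusted by Benjamini-Hochberg over 17650 genes. Standard errors are the log2 FC divided by the square root of F. The study's methods name edgeR on quantile-normalized TPM, which are not counts, so this was an alternative. TPM used exon lengths from GENCODE M21, which held 53947 of 54188 genes. Motifs were searched in RefSeq promoters.

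The depth was 33453580 to 68316154 counts per library. The sources call the libraries independent biological replicates, but do not tie them to mice. Alternatives were RLE and upper-quartile scaling, DESeq2 1.42.0, no filter, a fit of the 4 libraries compared, edgeR's exact test, other lengths for TPM, each library left out, and libraries 5 and 7 left out. The procedure was tested on simulated data. Adhesion and marker lists were written by hand, and the members and lists were chosen with earlier results of these data known. Genes outside the members were named by rule: selectins, Itgad and Vcam1, and up to 2 risen and 2 fallen genes of each list in each comparison with at least 10 CPM and no overlap of libraries. Some genes that the rule names are not reported here. Marker lists were B cell, plasma cell, T cell, NK cell, dendritic cell, splenic macrophage, erythroid, platelet, eosinophil and basophil, endothelial and stromal, neutrophil and monocyte.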

Additional observations from a re-analysis of the deposited data

Results flagged for a closer look

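The difference between SP and BM was not the same in Gr-1hi and Gr-1lo cells for 6 of the 9 genes, by edgeR's test of the difference itself (quasi-likelihood, adjusted by Benjamini-Hochberg). The values, Gr-1hi minus Gr-1lo on the log2 scale, were -0.91 for Itgam (adjusted p = 0.0179), -2.41 for Itgax (0.0148), 1.38 for Itga4 (0.00349), 0.74 for Itgb1 (0.027), -0.93 for Itgb2 (0.00534) and 2.13 for Icam1 (0.0044). Itgam, Itgax and Itgb1 did not pass without libraries 5 and 7.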

How the results depend on the processing

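Of 657 values of members recomputed in 15 alternatives, 593 kept direction and side of the threshold, 38 lost it, 25 gained it and 1 reversed (Cd44 between SP and BM Gr-1hi without library 10, -0.03, against -0.03 to 0.1 over the libraries left out). Of 45 member comparisons, 28 held in all alternatives. Members passing in Gr-1lo between tissues were 8 without a filter, 7 in a fit of the 4 libraries, and 2 to 7 with a library left out (2 without 8 or 11). DEGs there were 1 in the exact test and 1 to 3 with a library left out. In Gr-1hi cells 5 passed in the exact test and without libraries 5 and 7. DEGs between BM subsets were 2 without a filter and without 5 and 7, and 1 to 2 with a library left out. For the difference between subsets 3 passed without 5 and 7, and 3 to 7 with a library left out (3 without 12). The cause was not tested.

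Shares of Itgal and Itgam in CPM, without length, were 26.3% and 73.6% in BM Gr-1lo, 35.5% and 63.5% in SP Gr-1lo, and 15.2% and 84.3% in BM Gr-1hi. By the longest transcript they were 33.0% and 65.9% in SP Gr-1lo and 13.8% and 85.6% in BM Gr-1hi. In SP Gr-1hi they were 28.01% and 69.9% in CPM and 25.8% and 71.8% by the longest transcript, and in BM Gr-1lo 24.2% and 75.7% by the latter. With a library left out, an alternative chosen after seeing the data, a share is that of the other library (Itgam 68.4% to 88.0%), which does not measure stability. The study calls the BM cells autologous, but each library number belongs to 1 library and no label matches libraries by mouse. By Ddx3y and Xist, library 5 (0 and 12032 counts) matched no BM library (1725 to 2783 counts, and at most 5). No paired analysis was therefore possible, and the libraries were fitted as independent. With 2 libraries a group, small differences could not be resolved.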

Other observations

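The genes whose centred log2 CPM over the 8 libraries was nearest to each member were named by rule among 8596 genes with a mean of at least 10 CPM, as a description with no test. Apart from Gm49368 (root mean square difference 0.0208), which shares exons with Itgam, Pnpla8 was nearest to Itgam (0.0815). Cd44 was nearest to Rassf5 (0.0485) and Bsdc1 (0.0675), and Itgb2 to Brpf3 (0.0577) and Rnf19a (0.0895). Selplg was nearest to 5430427O19Rik (0.0914) and March7 (0.1), Itgb1 to Epb41l2 (0.117), and Itgal to Rnf19b (0.137) and Tgfbr2 (0.159). Itga4 was nearest to Entpd4b (0.186) and Entpd4 (0.187), which are near-identical copies whose reads cannot be told apart with certainty. Icam1 was nearest to Il21r (0.224) and Ahr (0.301), and Itgax to Tgm2 (0.437) and Ppp1r16b (0.561). Rassf5, an effector of Rap1 in integrin activation, was also in the list of integrin activation.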
